A study of Mus musculus with 2 samples.

Results

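The genes described here are 10 genes tied to NF-kB signalling, chosen by name: Nfkbia, Nfkbiz, Tnfaip3, Tnfaip2, Nfkb1, Relb, Icam1, Vcam1, Tnf and Il1b. All 10 were among the 32285 genes counted in hippocampal cells of WT and 60TM mice. The WT library came from C57BL6/J mice. The 60TM library came from mice of the genotype GFAP-hGFAP (60TM) on the same background, which carry a human GFAP transgene, and mice overexpressing human GFAP are used to model Alexander disease. Both groups were 7 weeks old. Cells were freed with papain after perfusion and run on the 10x Chromium 3' v3 platform, and each of the 2 libraries pooled 3 mice with no map from cell to mouse.

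Because there was 1 library per genotype, genotype and library cannot be told apart, and no test between genotypes was possible. Levels are given in CPM, the UMIs (counted RNA molecules) of a gene per 1000000 UMIs of a cell class, and ratios are 60TM over WT. The bracketed 95% intervals are exact and cover counting error only, not the spread between mice. A gene's count of 2-fold differences was taken only where it had at least 100 UMIs over both libraries.

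NF-kB is a family of transcription factor dimers held inactive in the cytoplasm by IkB proteins. Signals from TNF, IL-1 and pattern receptors lead to IkB degradation, and the freed dimers switch on their own inhibitors, which gives negative feedback, together with cytokine and adhesion genes. In brain, microglia, endothelial cells and reactive astrocytes are known to use this pathway.

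After filtering, 6087 of 6861 WT barcodes and 7572 of 8733 60TM barcodes were kept, with medians of 7213 and 7496 UMIs per cell. Marker genes named 949 WT and 1895 60TM astrocytes, 2120 and 2490 microglia, 78 and 123 border macrophages, and 124 and 183 endothelial cells. The 8 astrocyte markers were all detected in astrocytes, at sums of 24686 CPM in WT and 19522 CPM in 60TM, where the 8 microglial markers summed to 139 and 149 CPM. Microglial markers summed to 33585 and 30602 CPM in microglia, and endothelial markers to 23482 and 20362 CPM in endothelial cells. The libraries shared 20 barcode sequences, of which 16 were among the kept cells. Most WT astrocytes lay in clusters 30, 29 and 32 and most 60TM astrocytes in clusters 35, 28 and 33. Most WT microglia lay in clusters 39, 43 and 41 and most 60TM microglia in clusters 45, 40 and 42. The member genes were kept out of the clustering.

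The sequences below show the 250 bases before the transcription start for 4 members that could be placed clear of the annotated gene, since the NF-kB family reads short GC-rich elements there. They are RefSeq windows of build GRCm38.p6, printed 5' to 3' on the gene's strand: Nfkbia at chr12:55492648-55492897 (minus), Icam1 at chr9:21015690-21015939 (plus), Tnf at chr17:35202008-35202257 (minus) and Il1b at chr2:129371140-129371389 (minus). Capitals mark the match to the NF-kB consensus.
Nfkbia: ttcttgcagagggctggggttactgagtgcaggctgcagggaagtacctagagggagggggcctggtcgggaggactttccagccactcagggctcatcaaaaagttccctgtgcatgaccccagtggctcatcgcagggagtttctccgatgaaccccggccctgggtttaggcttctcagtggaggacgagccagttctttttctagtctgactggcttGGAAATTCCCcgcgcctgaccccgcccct
Icam1: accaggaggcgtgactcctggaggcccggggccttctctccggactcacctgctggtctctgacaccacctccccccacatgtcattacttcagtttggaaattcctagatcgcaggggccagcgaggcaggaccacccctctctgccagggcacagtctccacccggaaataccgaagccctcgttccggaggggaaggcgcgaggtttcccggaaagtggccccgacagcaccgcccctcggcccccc
Tnf: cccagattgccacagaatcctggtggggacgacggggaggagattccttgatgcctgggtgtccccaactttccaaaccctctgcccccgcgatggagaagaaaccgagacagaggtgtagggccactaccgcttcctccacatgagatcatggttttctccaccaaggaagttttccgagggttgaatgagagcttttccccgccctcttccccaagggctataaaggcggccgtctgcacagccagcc
Il1b: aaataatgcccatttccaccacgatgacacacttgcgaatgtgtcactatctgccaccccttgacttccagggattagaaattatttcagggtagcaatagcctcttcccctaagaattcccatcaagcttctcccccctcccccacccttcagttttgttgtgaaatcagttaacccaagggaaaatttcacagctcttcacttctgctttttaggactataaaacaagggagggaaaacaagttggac
Nfkbia, whose product IkB-alpha traps NF-kB dimers, held 1 consensus match, read on the opposite strand, at bases 29 to 20 before its start. No consensus match lay in the printed windows of Icam1, Tnf or Il1b. The Icam1 window ends at base 21015939, short of the GENCODE start of the gene at 21015985. Bases just after the RefSeq start of Icam1, and of Tnfaip2, were not found in GENCODE transcripts of these genes. Windows were found for 6 of the 10 members, and 3 of these 6 (Nfkbia, Tnfaip3 and Tnfaip2) held the consensus on either strand, against 7.25% of 32851 windows. A looser motif, GGG followed by any 5 bases and then CC, which overlaps the consensus and was also read on both strands, lay in 5 of the 6 members (not Il1b), against 45.8% of all windows. A match is a description of letters and not a binding site, and a missing match says only that the letters are not in that window.

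Nfkbia was higher in the 60TM astrocytes than in the WT astrocytes. The gene (ENSMUSG00000021025, GRCm38 chr12:55489410-55492647, minus strand) had 631 UMIs or 106 CPM in WT astrocytes and 5532 UMIs or 382 CPM in 60TM astrocytes, giving a ratio of 3.60 (3.31 to 3.91). After each cell was thinned to 2000 UMIs, 17.8% of WT and 37.4% of 60TM astrocytes held an Nfkbia UMI, against 8.02% and 9.91% of oligodendrocytes, a class used to read the background. Without thinning the astrocyte shares were 40.1% and 63.7%, at median depths of 5968 and 7037 UMIs, and the oligodendrocyte shares 44.3% and 55.6%, at 14684 and 15741.5 UMIs.

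The Nfkbia difference was present within astrocyte clusters and was smaller there. In all 7 astrocyte clusters with at least 20 cells in both libraries the 60TM level was the higher, with ratios from 1.35 to 2.94, and the interval lay above 1 in 6 of them. Cluster 35, led by Lcn2 and Cxcl5, held no WT cell and 345 60TM cells, and its Nfkbia level was 674 CPM. Without that cluster the class ratio was 2.63, and with the same mix of clusters in both libraries, an alternative chosen after the data were seen, it was 1.99. That mix used only clusters with at least 20 cells in both libraries. It left out cluster 35 and also cluster 36, which had 14 WT and 247 60TM cells.

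The remaining inhibitory and feedback members had few UMIs in astrocytes. Nfkbiz encodes IkB-zeta, a nuclear IkB protein that co-activates a subset of NF-kB targets. Nfkbiz (ENSMUSG00000035356, chr16:55811375-55838899, minus) was at 6.23 CPM in WT against 17.1 CPM in 60TM astrocytes, from 37 and 247 UMIs, giving a ratio of 2.74 (1.93 to 3.98). Averaged over cells rather than summed, that ratio was 1.70. The 60TM level of Nfkbiz was the higher in 3 of 5 astrocyte clusters that gave a ratio, with the interval above 1 in 1 of them. Cluster 35, without WT cells, held 117 of the 247 Nfkbiz UMIs. Tnfaip3 encodes A20, a ubiquitin-editing enzyme that shuts off NF-kB signalling. Tnfaip3 (ENSMUSG00000019850, chr10:19000910-19015657, minus) had 1 UMI in WT astrocytes and 39 in 60TM astrocytes, a ratio of 16.0 with an interval from 2.71 to 648. Microglial RNA carried into astrocytes would bring Tnfaip3 to 0.137 CPM in WT and 0.208 CPM in 60TM, beside measured levels of 0.168 and 2.69 CPM, of which the WT level is 1 UMI. The part of carried-over RNA in the difference was not tested.

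Tnfaip2 differed in opposite directions in astrocytes and microglia. Its product, also called M-Sec, is a TNF-induced protein tied to membrane protrusions. Tnfaip2 (ENSMUSG00000021281, chr12:111442469-111455018, plus; it overlaps Gm40578 on the other strand) was at 1.35 CPM in WT against 9.88 CPM in 60TM astrocytes, from 8 and 143 UMIs, giving a ratio of 7.34 (3.63 to 17.3). Cluster 35, without WT cells, held 93 of the 143 UMIs, and cluster 36 held 30, of which 10 were in 1 cell. Without cluster 35 the ratio was 3.48, and with the same cluster mix it was 2.20. No astrocyte cluster with at least 20 cells in both libraries had enough Tnfaip2 UMIs for a ratio. Only cluster 27 gave a bound, of at least 2.25, from 0 UMIs in WT and 6 in 60TM. In microglia Tnfaip2 was lower in 60TM, at 17.1 CPM in WT from 231 UMIs against 10.7 CPM in 60TM from 202 UMIs, giving a ratio of 0.624 (0.514 to 0.758). The microglial direction was the same in 6 of 7 clusters.

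**Figure D1:**
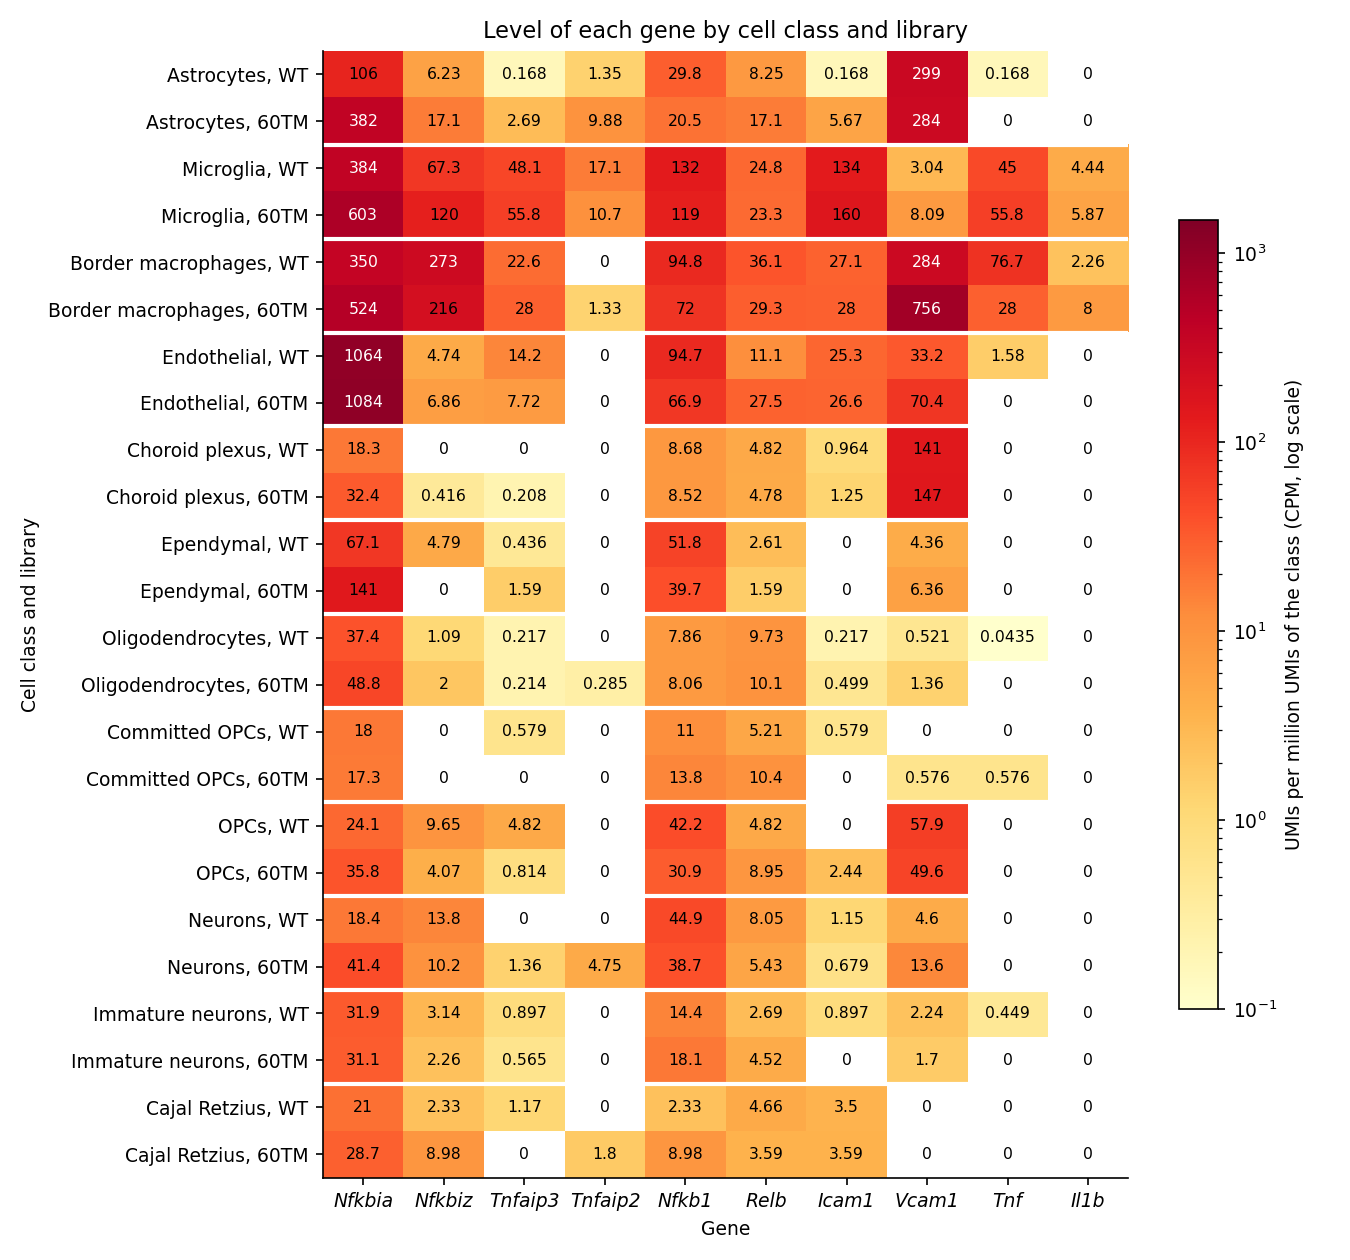
Level of each member (columns) in each cell class and library (rows), in CPM on a logarithmic colour scale with the value printed in each cell; white cells held 0 UMIs. Tnf was at 45.0 and 55.8 CPM in microglia and at or near 0 in astrocytes, whereas Vcam1 was at 299 and 284 CPM in astrocytes.

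The NF-kB subunit genes differed from each other in astrocytes. Nfkb1 encodes p105, the precursor of the p50 subunit. Nfkb1 (ENSMUSG00000028163, chr3:135584655-135691547, minus) was lower in 60TM astrocytes, at 29.8 CPM in WT against 20.5 CPM in 60TM, giving a ratio of 0.689 (0.570 to 0.834). The 60TM level was the higher in 0 of 6 astrocyte clusters that gave a ratio, and the interval lay below 1 in 1 of them. Relb encodes the partner of p52 in the non-canonical branch. Relb (ENSMUSG00000002983, chr7:19606217-19629438, minus) was higher, at 8.25 CPM in WT against 17.1 CPM in 60TM from 49 and 248 UMIs, giving a ratio of 2.08 (1.52 to 2.88), and 1.48 with the same cluster mix. Within clusters, 60TM was the higher for Relb in 3 of 4 that gave a ratio, and the interval lay above 1 in 0 of them. Cluster 35, without WT cells, held 113 of the 248 Relb UMIs.

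The adhesion genes showed different patterns. Icam1 and Vcam1 encode ligands for leukocyte integrins. Icam1 (ENSMUSG00000037405, chr9:21015985-21028817, plus) had 1 UMI in WT astrocytes and 82 UMIs or 5.67 CPM in 60TM astrocytes, giving a ratio of 33.7 with an interval from 5.88 to 1346. Carried-over microglial RNA would bring Icam1 to 0.381 CPM in WT and 0.597 CPM in 60TM astrocytes, beside a measured WT level of 0.168 CPM. After thinning, 0.115% of WT and 1.11% of 60TM astrocytes held an Icam1 UMI, against 0.0729% and 0.402% of oligodendrocytes. With called doublets kept and all cells clustered and named anew, the astrocyte counts were 47 and 222 UMIs and the ratio was 1.89. The size of the Icam1 difference thus depended on this setting. The parts of the doublets and of the new clustering in that change were not tested. The same held for Tnfaip3, with 20 and 104 UMIs and a ratio of 2.08. Vcam1 (ENSMUSG00000027962, chr3:116109949-116129688, minus) was at 299 CPM in WT against 284 CPM in 60TM astrocytes, from 1774 and 4109 UMIs, giving a ratio of 0.951 (0.899 to 1.01), and 42.2% and 39.8% of thinned cells held a UMI. A difference of 1.5-fold or more in Vcam1 in either direction lies outside that counting interval.

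The cytokine genes were hardly detected in astrocytes. TNF and IL-1 beta are themselves activators of NF-kB. Tnf (ENSMUSG00000024401, chr17:35199381-35202007, minus) had 1 UMI in WT and 0 in 60TM astrocytes, and Il1b (ENSMUSG00000027398, chr2:129364570-129371139, minus) had 0 in both, which allows Il1b levels of up to 0.505 CPM and 0.207 CPM. None of 869 WT and 1707 60TM thinned astrocytes held either gene, which allows shares of cells with a UMI at that depth of up to 0.345% and 0.176%. That limit concerns detection and not the share of cells that express the gene.

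Of the 6 members with at least 100 UMIs in astrocytes, 4 were at least 2-fold higher in 60TM (Nfkbia, Nfkbiz, Tnfaip2 and Relb), where 2.19% of 10368 genes were, and 0 were 2-fold lower, where 1.07% were. Nfkbiz, Tnfaip2 and Relb reached 100 UMIs only through the 60TM library, where they were the higher, so the count of 4 supports nothing by itself. Of the 3 members with at least 100 UMIs in WT astrocytes alone, Nfkbia was past 2-fold and Nfkb1 and Vcam1 were not. The remaining 4 members, Tnfaip3, Icam1, Tnf and Il1b, had fewer than 100 UMIs. The count of 4 was 1 without cluster 35, 1 with the same cluster mix and 1 after thinning, where fewer members kept 100 UMIs. This was not the same member throughout, since Nfkbia was just under 2-fold with the same cluster mix. Of 25 other pathway genes with enough UMIs, 2 were at least 2-fold higher and 0 lower, with a median ratio of 1.06, against 0.938 over all genes. These were Csf1, the macrophage growth factor gene, at 48.8 CPM in WT against 114 CPM in 60TM, giving a ratio of 2.35 (2.07 to 2.67), and Nfkb2, which encodes the p52 precursor, at 2.69 and 7.81 CPM, a ratio of 2.90 (1.71 to 5.25). Nfkb2, with 16 UMIs in WT and 113 in 60TM, also reached 100 UMIs only through 60TM, whereas Csf1 had 290 in WT alone. Immediate early genes, which cell dissociation is known to induce, summed to 639 CPM in WT against 1975 CPM in 60TM astrocytes, and 9 of 11 were at least 2-fold higher. Their part in the member differences was not tested.

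**Figure D2:**
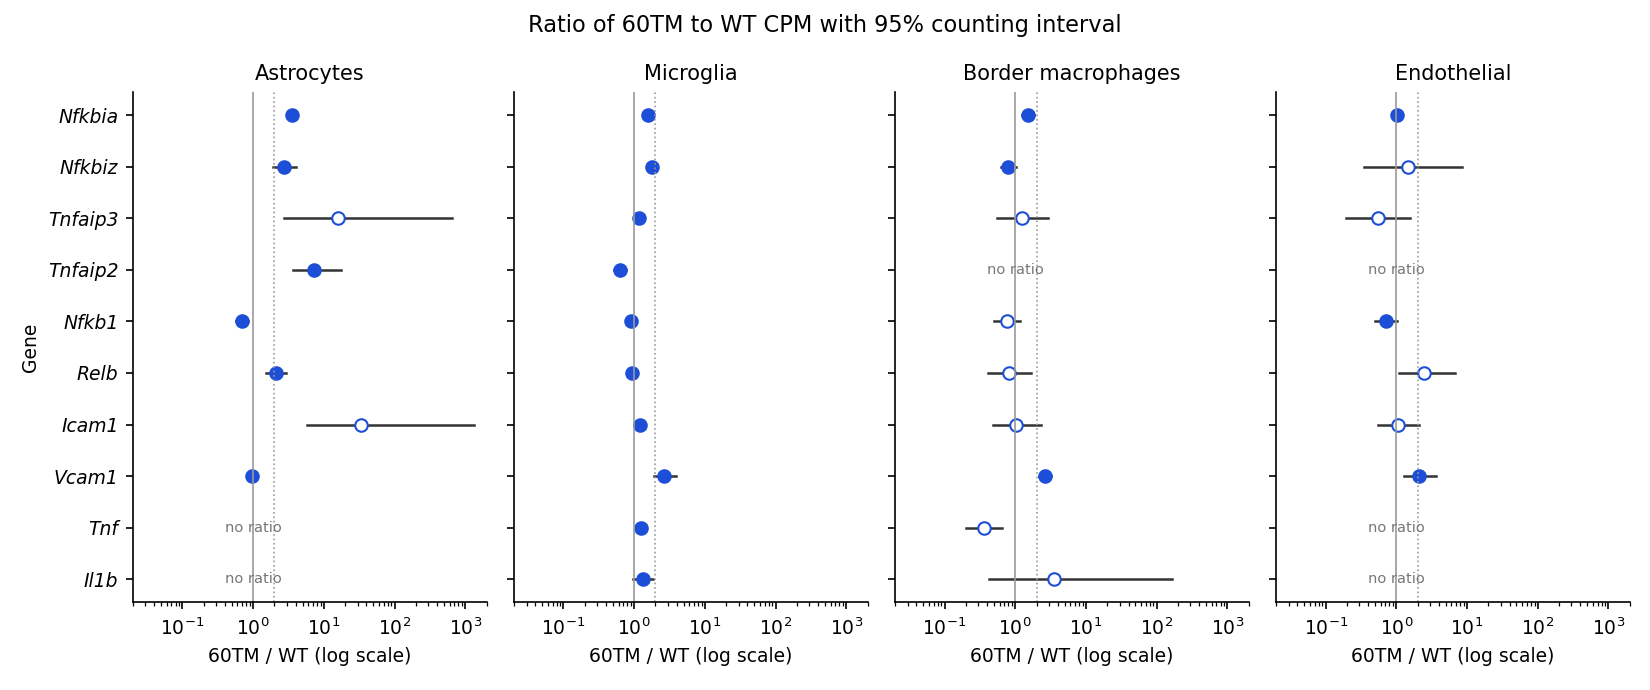
Ratio of 60TM to WT (log axis) for each member in astrocytes, microglia, border macrophages and endothelial cells, with 95% counting intervals as lines; filled points had at least 100 UMIs over both libraries and open points fewer, the solid line marks 1 and the dotted line 2. Nfkbia was at 3.60 in astrocytes, 1.57 in microglia and 1.02 in endothelial cells.

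Astrocyte states set by Gfap and Lcn2 ordered Nfkbia within 60TM. Thinned cells were split by whether they held a UMI of Gfap, the astrocyte intermediate filament gene, or of Lcn2, a secreted lipocalin gene. Nfkbia was at 163 CPM (139 to 190) in 488 60TM cells with neither, 373 CPM (346 to 401) in 972 with Gfap only, and 619 CPM (552 to 693) in 247 with Lcn2. The intervals of these 3 states did not overlap. In WT, cells without Gfap were at 93.7 CPM (76.6 to 114) and cells with Gfap at 108 CPM (84.1 to 137), and these intervals overlapped. The interval of the 60TM cells with neither gene lay above that of the matching WT cells. Whether reads of the human transgene added to mouse Gfap counts was not tested.

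Relb in the same 60TM states was at 5.12 CPM (1.66 to 12), 11.8 CPM (7.5 to 17.8) and 32.4 CPM (18.5 to 52.6), from 5, 23 and 16 UMIs. Its intervals overlapped between the states without Lcn2, and that of the Lcn2 state lay above both. Tnfaip2 was at 0, 5.14 CPM (2.47 to 9.46) and 18.2 CPM (8.33 to 34.6), from 0, 10 and 9 UMIs, and the intervals of neighbouring states overlapped. Vcam1 was at 253, 259 and 364 CPM in the 60TM states and at 314 and 272 CPM in the WT states. Nfkb1 was at 16.4 CPM (9.37 to 26.6), 19.0 CPM (13.4 to 26.2) and 28.3 CPM (15.5 to 47.5) in 60TM, and at 33.3 CPM (23.5 to 45.9) and 44.6 CPM (29.6 to 64.4) in the WT cells without and with Gfap. The interval of the Lcn2 state, from 14 UMIs, overlapped both WT intervals.

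Among the astrocyte clusters, cluster 35 held the highest levels of Nfkbia, Nfkbiz, Tnfaip2 and Icam1. Nfkbiz was at 30.9 CPM there, Tnfaip2 at 24.6 CPM and Icam1 at 12.4 CPM. Relb was at 29.8 CPM in cluster 35 and at 34.5 CPM in the 60TM cells of cluster 37. Cluster 36 had 468 CPM of Nfkbia and 4.93 CPM of Icam1. The WT clusters ranged in Nfkbia from 65.5 CPM in cluster 28 to 196 CPM in cluster 37, and the same clusters in 60TM were at 168 and 410 CPM.

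**Figure D3:**
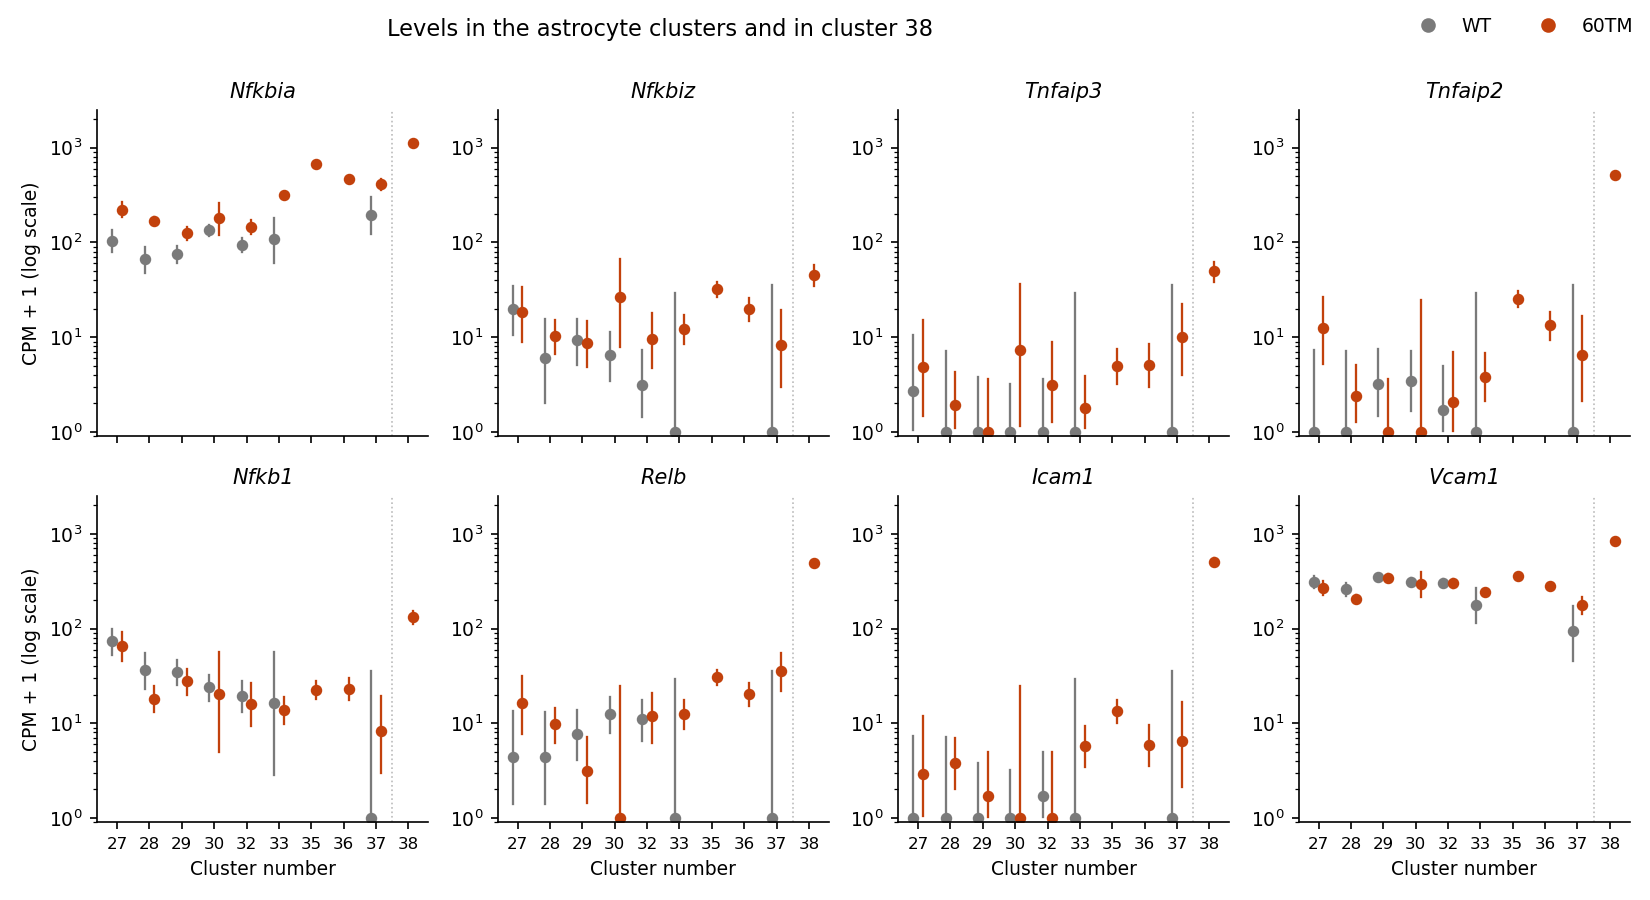
Level of 8 members (CPM + 1, log axis) in the astrocyte clusters and in cluster 38, for each library with at least 20 cells in the cluster. Cluster 35, with 60TM cells only, was at 674 CPM of Nfkbia, and cluster 38 was above it for all 8 genes.

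Cluster 38, which was left without a cell type name, was above 60TM astrocytes in 8 members. It held 109 60TM cells and no WT cell, with a median of 9805 UMIs, and was led by Ccl2, Cxcl10, Gadd45b, Gdf15, Cxcl1, Hmox1 and Tnfaip2. No class met the naming rule in it. All 8 astrocyte markers were detected, which also held in 60TM microglia, so their detection does not name the cluster. They summed to 9138 CPM, against 19522 CPM in 60TM astrocytes and 246 CPM in 60TM microglia. Cluster 38 is compared here with 60TM astrocytes as a description, since clusters drawn from the same cells give no test.

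Icam1 was at 508 CPM in cluster 38, 89.7 times (71.3 to 114) the level in 60TM astrocytes. Tnfaip2 was at 510 CPM, 51.7 times (43.1 to 62.3) the astrocyte level, and Relb at 490.1 CPM, 28.6 times (24.7 to 33.2). Microglial RNA carried over would bring Icam1 to 1.71 CPM in these cells, and its part in the measured level was not tested. Tnfaip3 was at 48.7 CPM, a ratio of 18.1 (12 to 27.5), and Nfkb1 at 130.0 CPM, a ratio of 6.33 (5.23 to 7.65). Nfkbia, Vcam1 and Nfkbiz differed less, at 1128, 842 and 44.3 CPM and ratios of 2.95, 2.96 and 2.60. Tnf and Il1b had 0 UMIs, which allows up to 2.18 CPM each.

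The 8 members that reached 100 UMIs in this comparison were at least 2-fold higher in cluster 38, where 16.9% of 9900 genes were, and 0 were lower, where 9.03% were. Icam1, with 82 UMIs in the astrocytes and 700 in the cluster, and Tnfaip3, with 39 and 67, reached 100 UMIs only through the cluster where they were the higher, so the count of 8 supports nothing by itself. The other 6 had more than 100 UMIs in the astrocytes alone, and Tnf and Il1b had none in either. Among other pathway genes 15 of 30 were at least 2-fold higher, with a median of 2.14 against 1.14 over all genes. Of these 15, Nfkbie, Birc3, Tlr2, Rel, Bcl3 and Zc3h12a had 41, 35, 75, 68, 93 and 77 UMIs in the astrocytes. They reached 100 UMIs only through the cluster where they were the higher, so this count and median support nothing by themselves either. Nfkbie, which encodes IkB-epsilon, was at 251 CPM and 88.7 times the astrocyte level. Birc3, a ubiquitin ligase gene of the TNF receptor complex, was 39.6 times higher, Tlr2, a pattern receptor gene, 33.1 times, and Nfkb2 21.5 times. The kinase genes Chuk and Ikbkb were at ratios of 1.01 and 0.958, and Il6 had 0 UMIs. Immediate early genes summed to 4681 CPM, and 6 of 12 were at least 2-fold above 60TM astrocytes. Of these 6, Atf3, with 69 UMIs in the astrocytes and 264 in the cluster, reached 100 UMIs only through the cluster. The part of immediate early genes in the member levels was not tested. These 109 cells held 65.0% of all Tnfaip2 UMIs of the 60TM library, 38.7% of Relb, 17.7% of Icam1, 15.4% of Vcam1 and 6.58% of Nfkbia.

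Members were found together in single cells of this cluster. After thinning, 55.2% (44.7 to 65.4) of 96 cells held a UMI of at least 3 of the 10 members, and the highest number in a cell was 8. The share was 2.64% in 60TM astrocytes, 0.806% in WT astrocytes and 6.18% in cluster 35. In microglia it was 8.53% in WT and 15.1% in 60TM, in border macrophages 21.2% and 21.4%, and in endothelial cells 1.11% and 3.10%. Among single clusters, the next highest shares after cluster 38 were 35.0% of 20 WT cells in unnamed cluster 25, 28.8% of 59 60TM cells in microglial cluster 44 and 25.4% of 685 60TM cells in microglial cluster 45. It was 0 of 1371 WT and 0 of 747 60TM oligodendrocytes.

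**Figure D4:**
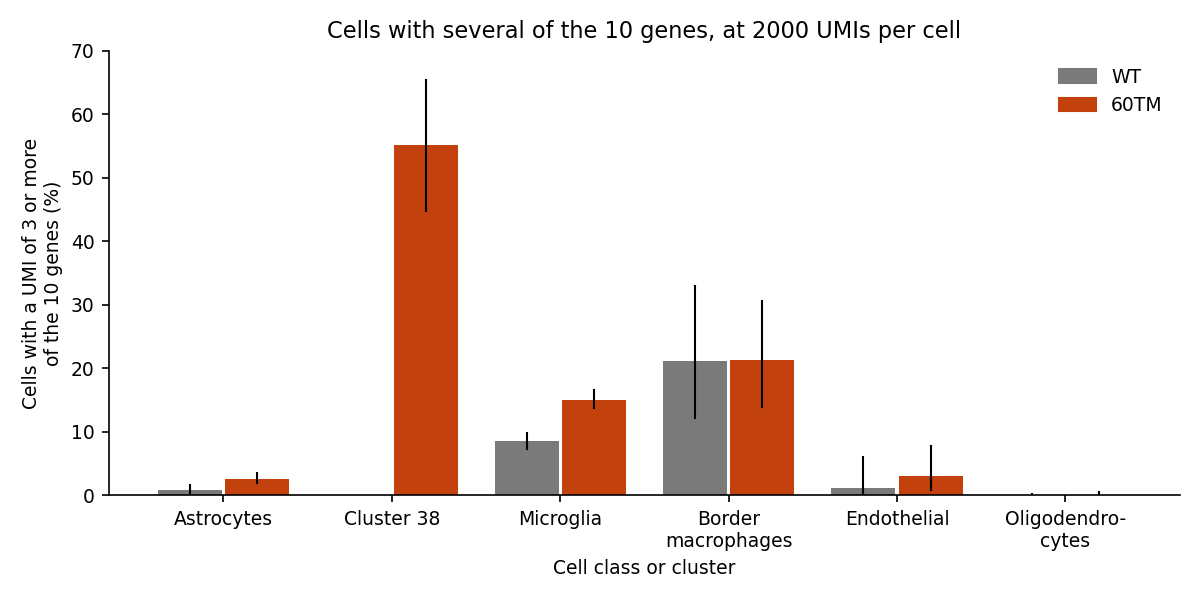
Percent of cells, each thinned to 2000 UMIs, that held a UMI of at least 3 of the 10 members, by cell class or cluster and library, with exact 95% intervals for counting error. Cluster 38 of the 60TM library stood at 55.2%, and border macrophages, the highest of the plotted cell classes, at 21.2% and 21.4%.

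Microglia held most UMIs of Tnf, Icam1, Tnfaip3 and Nfkbiz. In WT they had 93.5% of Tnf, 96.2% of Icam1, 93.9% of Tnfaip3 and 78.5% of Nfkbiz UMIs of the library. In 60TM the shares were 97.2%, 76.5%, 85.4% and 79.3%. The Icam1 share was lower in 60TM, where cluster 38 and astrocytes also held Icam1 UMIs.

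In microglia Nfkbia and Nfkbiz were higher in the 60TM library, by less once the cluster mix was set equal. Nfkbia was at 384 CPM in WT against 603 CPM in 60TM, giving a ratio of 1.57 (1.52 to 1.62), and 1.2 with the same cluster mix. Nfkbiz was at 67.3 and 120.4 CPM, a ratio of 1.79 (1.66 to 1.93), and 1.48 with the same mix. Within clusters, 60TM was the higher in 6 of 7 for Nfkbia, with ratios from 0.983 to 1.69, and in 7 of 7 for Nfkbiz, with ratios from 1.03 to 1.80. The intervals for Nfkbiz lay above 1 in 3 of those 7. Tnfaip3 was at 48.1 and 55.8 CPM, a ratio of 1.16 (1.05 to 1.28), and 1.03 with the same mix.

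Tnf was at 45.0 CPM in WT against 55.8 CPM in 60TM microglia, giving a ratio of 1.24 (1.12 to 1.37), and 60TM was the higher in 4 of 7 clusters. The Tnf interval lay above 1 in 1 of those 7. Icam1 was at 134 and 160.5 CPM, a ratio of 1.2 (1.13 to 1.27), but 21.8% of thinned microglia held an Icam1 UMI in both libraries. Within clusters, 60TM was the higher for Icam1 in 5 of 7, with the interval above 1 in 2 and below 1 in 1. Relb was at 24.8 and 23.3 CPM, a ratio of 0.940 (0.814 to 1.09). Nfkb1 was at 132 and 119 CPM, a ratio of 0.905 (0.850 to 0.964), which became 1.01 with the same cluster mix. The interval for Relb includes 1, and the direction for Nfkb1 turned on the mix of clusters.

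Il1b was rare in microglia and unevenly spread over cells. It was at 4.44 CPM in WT, from 60 UMIs in 17 cells of which 1 held 35.0%, and at 5.87 CPM in 60TM, from 111 UMIs in 44 cells of which 1 held 19.8%. The ratio was 1.32 (0.957 to 1.84), an interval that includes 1, and it was 0.542 with the same cluster mix. In WT cluster 45, 21 of 22 Il1b UMIs came from 1 cell, and the WT level of that cluster, 33.3 CPM, enters the 0.542. Neutrophil markers summed to 2652 CPM in the WT cells of cluster 45 and to 134 CPM in its 60TM cells. Vcam1 was at 3.04 and 8.09 CPM in microglia, a ratio of 2.66 (1.88 to 3.86), where astrocyte RNA carried over would bring 2.84 and 3.58 CPM. With that amount subtracted, Vcam1 no longer had 100 UMIs in microglia. Vcam1 was the 1 of 10 members at least 2-fold higher in 60TM microglia, where 1.02% of 10251 genes were, and 0 were lower, where 0.283% were. It reached 100 UMIs only through 60TM, with 41 UMIs in WT and 153 in 60TM. Among 41 other pathway genes, 0 were at least 2-fold different.

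Nfkbia, Nfkbiz and Tnf were lower in 3 microglial clusters with little immediate early signal than in 3 with much, and did not follow that signal throughout. In clusters 39, 40 and 41, where immediate early genes summed to 2810 to 4384 CPM, Nfkbia was at 115 to 171 CPM, Nfkbiz at 11.2 to 18.0 CPM and Tnf at 2.90 to 11.6 CPM. In clusters 42, 43 and 45, where that sum was 20212 to 29138 CPM, Nfkbia was at 384 to 908 CPM, Nfkbiz at 85.0 to 172 CPM and Tnf at 47.3 to 82.1 CPM. These ranges did not overlap for any of the 3 genes in either library. Over all microglia the immediate early sum was 12808 CPM in WT against 18135 CPM in 60TM, and its part in the member differences was not tested.

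Cluster 44, led by Ccl4, Lpl, Ccl3 and Spp1 with 129 cells in WT and 60 cells in 60TM, had Tnf at 188 CPM in WT against 158 CPM in 60TM, and Nfkbia at 803 and 789 CPM. Its immediate early sums, 13583 and 15347 CPM, lay between those of the clusters above, whereas its Tnf level was the highest of the microglial clusters. Il1b there was at 3.85 and 31.3 CPM, the latter from 18 UMIs in 4 cells. Cluster 48, led by interferon-stimulated genes with 2 WT and 89 60TM cells, had Nfkbiz at 218 CPM, Nfkbia at 590 CPM and Tnf at 81.8 CPM in 60TM, with an immediate early sum of 15808 CPM and the highest Nfkbiz level of the microglial clusters.

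**Figure D5:**
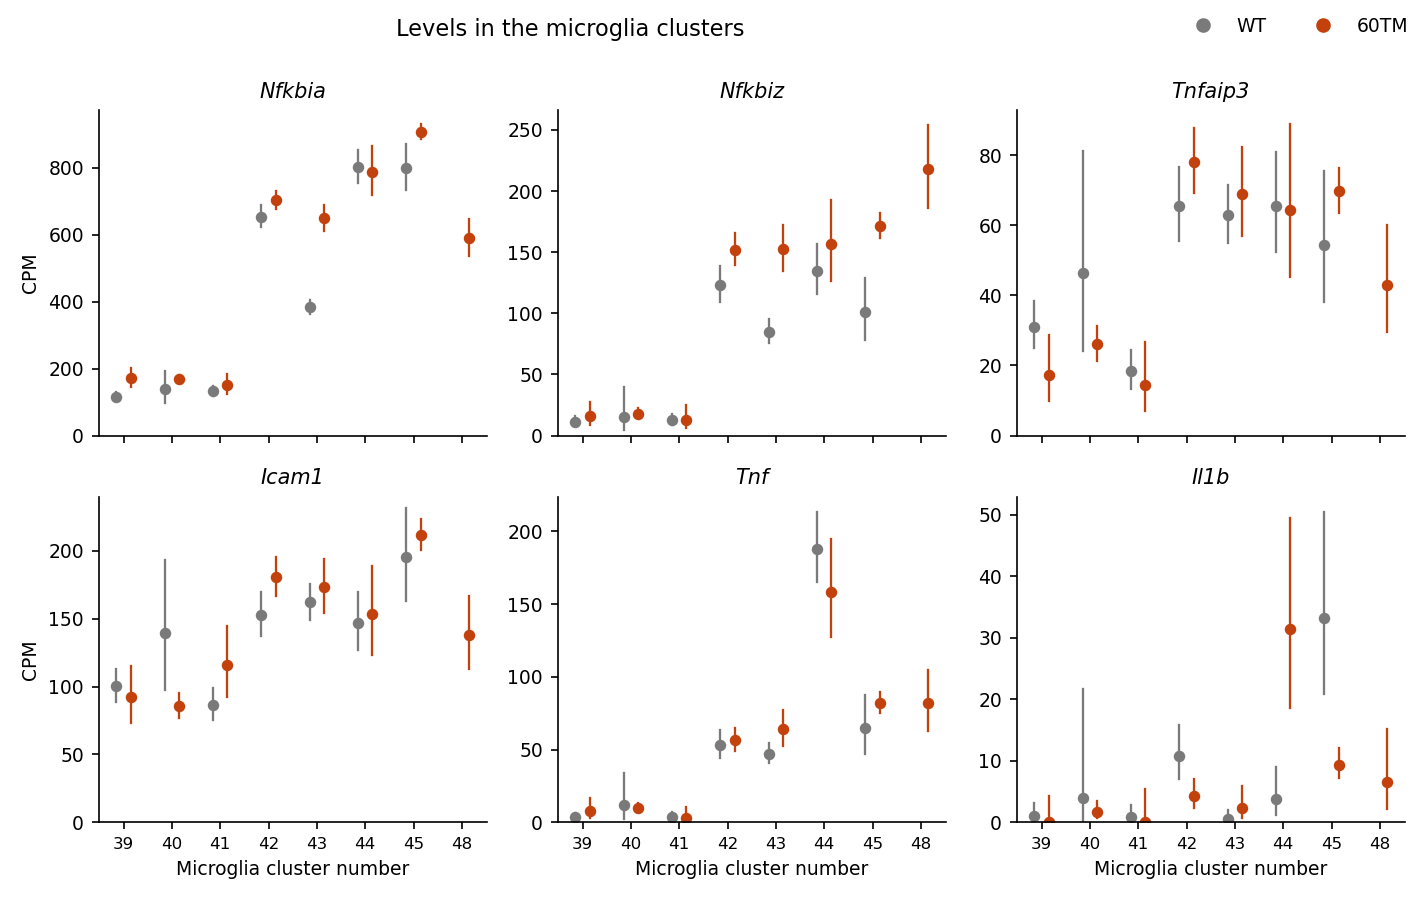
Level of 6 members (CPM, linear axis from 0) in the microglial clusters, by library with at least 20 cells. Tnf was highest in cluster 44, at 188 and 158 CPM, and Nfkbia, Nfkbiz and Tnf were lower in clusters 39, 40 and 41 than in clusters 42, 43 and 45.

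In border macrophages, which line vessels and meninges, Vcam1 was higher and Tnf lower in the 60TM library. Vcam1 was at 284 CPM in WT against 756 CPM in 60TM, giving a ratio of 2.66 (2.19 to 3.25), and after thinning 33.3% and 54.4% of cells held a UMI and the ratio was 1.83. It was the 1 of 3 members with enough UMIs that passed 2-fold, where 1.96% of 1888 genes were higher, and 0 were 2-fold lower, where 0.318% were. Nfkbia was at 350 and 524 CPM, a ratio of 1.5 (1.24 to 1.82), and Nfkbiz at 273 and 216 CPM, a ratio of 0.791 (0.621 to 1.01). Tnf was at 76.7 and 28.0 CPM, a ratio of 0.365 (0.201 to 0.647), from 34 UMIs in WT, 10 of them in 1 cell, and 21 UMIs in 60TM. Icam1 was at 27.1 and 28.0 CPM.

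Endothelial cells had Nfkbia levels that differed little between the libraries. Nfkbia was at 1064 CPM in WT against 1084 CPM in 60TM, giving a ratio of 1.02 (0.927 to 1.12), and 88.9% and 79.1% of thinned cells held a UMI. Nfkb1 was at 94.7 and 66.9 CPM, a ratio of 0.706 (0.498 to 1.01). Icam1 was at 25.3 and 26.6 CPM, and Tnfaip2 had 0 UMIs in both libraries. Relb was at 11.1 and 27.5 CPM from 7 and 32 UMIs, a ratio of 2.48 (1.08 to 6.67).

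Endothelial Vcam1 passed 2-fold on few cells. It was at 33.2 CPM in WT, from 21 UMIs in 11 cells, and at 70.4 CPM in 60TM, from 82 UMIs in 15 cells of which 1 held 25 UMIs. The ratio was 2.12 (1.30 to 3.61), but it was 1.13 averaged over cells and 0.543 after thinning, so its direction depended on the measure. Astrocyte RNA carried over would bring 13.9 and 24.6 CPM. It was the 1 of 3 members past 2-fold, though with fewer than 100 UMIs in either library alone, where 1.19% of 3264 genes were higher, and 0 were 2-fold lower, where 0.398% were. Of 6 other pathway genes, 0 passed 2-fold.

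In oligodendrocytes Nfkbia was at 37.4 and 48.8 CPM, a ratio of 1.31 (1.18 to 1.45), Relb at 9.73 and 10.1 CPM and Nfkb1 at 7.86 and 8.06 CPM. No member of 3 passed 2-fold there, where 0.824% of 9957 genes were higher and 0.211% lower. Immature neurons were at 31.9 and 31.1 CPM of Nfkbia. Neurons were at 18.4 and 41.4 CPM from 16 and 61 UMIs, a ratio of 2.25 that became 0.898 once astrocyte carry-over was subtracted, an alternative chosen after the data were seen. Choroid plexus cells were at 18.3 and 32.4 CPM, a ratio of 1.77 (1.1 to 3.02) that became 0.747 after thinning. Vcam1 was at 141 and 147 CPM in choroid plexus and at 57.9 and 49.6 CPM in oligodendrocyte precursors. Unnamed cluster 15, led by Frzb with 145 WT and 383 60TM cells, had Nfkbia at 44.8 and 167 CPM, a ratio of 3.74 (2.81 to 5.05), and Vcam1 at 134 and 142 CPM, a ratio of 1.06.

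Over 23 sums of a class in a library, the genes most like each member in log2(CPM + 5) were found among 9963 genes. These points share libraries and class depths, so Pearson's r is given as a description. Tnf was most like Adcy7 (0.997) and Pik3cg (0.989), Icam1 like Samsn1 (0.974) and Gngt2 (0.966), and Tnfaip3 like Irf5 (0.976) and Fes (0.971). Nfkbiz was most like Nrros (0.957) and Fcgr2b (0.951), Nfkbia like Itpripl2 (0.95) and Trim34a (0.943), and Il1b like Ccl6 (0.976) and Ccl9 (0.971). Vcam1 was most like Metrnl (0.917) and Apoe (0.861), Nfkb1 like Srgap2 (0.934) and Acsl5 (0.907), Relb like Irak4 (0.899) and Ccdc152 (0.887), and Tnfaip2 like Gal3st4 (0.848) and A830008E24Rik (0.834). Between members, r was 0.953 for Tnfaip3 and Icam1 and 0.175 for Icam1 and Vcam1.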

How the data were processed

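The deposited files hold raw UMI counts per gene and barcode, made by the authors with Cell Ranger 5.0.0 on GRCm38 per the submitters' processing notes; the deposited feature and barcode files hold names only. Annotation release, use of intronic reads and use of strand are not given in the sources used here. No column of per-sample values was unused (0). Overlapping genes lie at Tnfaip2, Nfkb1 (Gm43430), Icam1 (Gm47079), Vcam1 (Gm43109) and Il1b (Il1bos), and their reads may not be fully told apart. Gene positions are GENCODE M21.

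A kept barcode had 500 or more genes and no more than 15% of its UMIs from mitochondrial genes. This removed 264 WT and 338 60TM barcodes for few genes and 232 and 384 for mitochondrial UMIs. Doublets were the highest Scrublet scores at 0.8% per 1000 barcodes, which marked 377 WT barcodes (5.49%) and 610 60TM barcodes (6.99%); the caller's own threshold marked 232 and 295. Kept cells held 57246822 WT and 70722418 60TM UMIs. Cells were clustered with scanpy 1.11.5 and leidenalg 0.10.2 (2000 variable genes without the member, pathway and immediate early genes, 30 components, 15 neighbours, resolution 1.0) in Python 3.11.15, in 2 steps. Earlier clustering versions left deep and shallow astrocytes in 1 cluster, and the second step was chosen after looking at cluster tables and leading genes. A cluster was named where 3 of a class's markers were raised in it, no other class scored nearly as high, and its leading genes and depth did not go against the name; 619 WT and 1194 60TM cells stayed unnamed.

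Counts were summed per class and library. A level has an exact Poisson interval, a ratio an exact conditional binomial interval, and a share an exact Clopper-Pearson interval, all at 95%; a count of 0 allows up to 3 UMIs. Ratios of a class needed 50 cells in each library, and ratios within a cluster needed 20. The carry-over level of a member in a class is its microglial level times the ratio of summed CPM, class over microglia, of 10 microglial genes, which are not the same set as the 8 naming markers; for astrocyte RNA the 8 astrocyte markers were used. The scripts were tested on simulated data. The text names all members, the pathway genes past 2-fold with the interval farthest from 1, and the 2 genes most like each member. The members, lists and tests were chosen with earlier results of these data known. Alternatives concerned cell filters, doublets, thinning, clustering, minimum UMIs, fold, cluster mix and carry-over; 3 of them were chosen after seeing the data.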

Additional observations from a re-analysis of the deposited data

Results flagged for a closer look

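Tnfaip2 differed in opposite directions in 2 classes: the 60TM to WT ratio was 7.34 in astrocytes and 0.624 in microglia, with counting intervals on either side of 1. Tnf did so in microglia, at 1.24, and border macrophages, at 0.365, the latter from 34 and 21 UMIs. Of the 143 Tnfaip2 UMIs in 60TM astrocytes, 93 lay in cluster 35, which held no WT cell. With 1 library per genotype, the difference between the classes was not tested in either case.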

How the results depend on the processing

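No paired analysis was possible because each genotype has 1 library, and for the same reason no replicate could be left out. Over 340 alternative values of single members, 281 lay inside the counting interval of the main value, 55 moved further and 4 reversed, where a reversal was called only for a main ratio whose interval did not include 1. Ratios whose interval included 1 could also change side, such as Il1b in microglia, 0.542 with the same cluster mix, and Vcam1 in astrocytes, 1.13 with unnamed clusters added. The Il1b value rests in part on 1 WT cell of cluster 45. The reversed ratios were Nfkbia in choroid plexus, 0.747, and Vcam1 in endothelial cells, 0.543, after thinning; Nfkb1 in microglia with the same cluster mix, 1.01; and Nfkbia in neurons with astrocyte carry-over subtracted, 0.898.

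The 4 members at least 2-fold higher in astrocytes became 2 with the kept cells limited to 5% mitochondrial UMIs. They became 1 after thinning, 1 without cluster 35 and 1, not Nfkbia, with the same cluster mix. In microglia the 1 became 2 with doublets kept and 0 with astrocyte carry-over subtracted. In border macrophages the 1 became 0 after thinning. In endothelial cells the 1 became 0 with the limit of 5% mitochondrial UMIs, as a mean over cells, after thinning and with carry-over subtracted. Fewer genes reach 100 UMIs after thinning or subtraction.

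Genes past 2-fold in either direction numbered 338 in astrocytes, and 954 with a minimum of 20 UMIs, 121 with 500 UMIs and 1172 at 1.5-fold. In microglia these were 134, 592, 45 and 489, and in endothelial cells 52, 465, 3 and 254. With 20 UMIs, the pathway genes past 2-fold became 8 in astrocytes, 2 in microglia and 2 in endothelial cells. Adding the unnamed clusters 31 and 38 to the astrocytes gave ratios of 36.5 for Tnfaip2, 6.87 for Relb, 4.22 for Nfkbia and 0.999 for Nfkb1. Depth limits Tnf and Il1b in astrocytes and most members in the small classes.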

Other observations

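Il1b UMIs of the WT library lay mostly outside the named classes. Cluster 25, an unnamed mix with neutrophil, monocyte and T cell markers, held 73.1% of them, 166 UMIs in 9 of its 20 WT cells. In 60TM the same cluster had 30 cells and 19 Il1b UMIs, all in 1 cell, and microglia held 81.6% of the library's Il1b UMIs. Neutrophil markers in cluster 25 summed to 35075 CPM in WT and 11.1 CPM in 60TM, so the cluster did not hold the same cells in the libraries, and its Il1b levels are not compared. Cluster 16, which carried pericyte and endothelial markers, had Nfkbia at 678 CPM in 40 WT cells and 765 CPM in 115 60TM cells, a ratio of 1.13. Vcam1 there was at 21.4 and 69.0 CPM, a ratio of 3.22 (1.86 to 6.05), with 53 of 136 60TM UMIs in 1 cell. Icam1 was at 6.12 and 21.3 CPM from 4 and 42 UMIs, a ratio of 3.48 (1.26 to 13.4). The intervals of Tnfaip3, Nfkb1 and Relb in cluster 16 included 1.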
